A study of Rattus norvegicus with 59 samples.

Results

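The comparison set the striatum and nucleus accumbens of the rat brain, which are the dorsal and ventral parts of the striatum, against 3 regions outside it, the frontal cortex, hippocampus and amygdala. Region was taken from the array titles, and 24 of the 59 arrays of the series were striatal (12 striatum, 12 accumbens), with 35 from the other regions. The rats were adult males of the inbred alcohol-preferring line iP5C (iP) and the inbred non-preferring line iNP1 (iNP), with 6 animals of each, untreated beyond daily handling. Each array held total RNA of 1 region of 1 rat on an Affymetrix rat array, and no animals were pooled. No cortex array of iP animal 6 was analysed here, so that animal's non-striatal mean was that of hippocampus and amygdala. Within each animal, the mean log2 signal of striatum and accumbens was set against the mean of the non-striatal arrays, with both lines together and equal weight to each.

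Most neurons of the striatum and accumbens are medium spiny neurons, which release the inhibitory transmitter GABA and receive dopamine from the midbrain and glutamate from cortex, hippocampus and amygdala. Those of the direct pathway carry the D1 dopamine receptor and the peptides substance P and dynorphin, and those of the indirect pathway carry the D2 dopamine receptor, the adenosine receptor Adora2a and enkephalin. In both, receptors act through the G protein alpha subunit Gnal and the adenylyl cyclase Adcy5 on cyclic AMP. Cortex, hippocampus and the basolateral amygdala are instead built mainly of glutamate-releasing projection neurons, with GABA neurons in the minority. In tissue RNA, fewer cells of a type and less RNA per cell cannot be told apart.

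The arrays were scaled to a common level, with median signals between 254 and 393. Over the 5 marker genes that name the striatal cells (Rgs9, Penk, Drd1, Gnal, Tac1), the mean log2 signal of an array ran from 11.13 to 12.41 in striatum, from 11.24 to 12.03 in accumbens, from 8.01 to 8.80 in cortex and from 7.76 to 8.40 in hippocampus. The striatal labels were thus borne out by their markers. In amygdala it ran from 8.47 to 11.06, so some amygdala arrays held marker signal that approached the striatal range. Correlated with all other arrays, 5 had their highest median with a region other than their own and are called nearest to it. Cortex of iP animal 5, in which the 3′ signal of Gapdh exceeded the 5′ signal by 6.14 (log2), was nearest amygdala, and amygdala of iP animal 1 was nearest cortex. Amygdala of iNP animals 7 and 8 lay nearest accumbens, with marker means of 10.74 and 11.06, and accumbens of iP animal 4 lay nearest amygdala. All 5 were kept, and values without them are given for the shared calls and for some of the other results.

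Many transcripts set the striatum and accumbens apart, and more of them were higher than lower. Of 5244 probe sets tested, 150 were higher (2.86%) and 38 lower (0.725%) in the mean of striatum and accumbens, by limma at an adjusted p under 0.05 and a log2 difference over 0.5 (1.41-fold). Striatum alone had 178 higher (3.39%) and 81 lower (1.54%), and accumbens alone 241 higher (4.6%) and 92 lower (1.75%). Both comparisons use the same non-striatal arrays. Called the same way in both, and so shared by dorsal and ventral striatum, were 82 probe sets higher (1.56%) and 13 lower (0.248%). Of the 82, 76 carry a single gene symbol, 63 different ones in all, and of the 13, 11 do. By the brightest probe set of each gene, which stands for the gene throughout, 49 genes were shared higher and 9 shared lower. Without the 5 arrays that lay nearest another region there were 87 shared higher and 21 shared lower probe sets, which included 72 of the 82 and all 13. With 1 region left out of the non-striatal mean, the calls that stayed shared were 53 of the 82 and 7 of the 13 without hippocampus, 61 and 10 without amygdala, and 72 and 13 without cortex. By gene, Ecel1, Nppa, Arpp21, Kcnt1, Neu2, Pttg1, Kcnf1, Slc32a1, Htr2a, Gucy1a1, Prkar2b, Myh7, Gnb5, Junb and Scn3a were no longer shared higher, and Atp2b3, Ntf3, Agt and Ttr no longer shared lower, without hippocampus. Without amygdala those lost were Fat1, Kcnab1, Fgfr2, Fosl2, Strn, Gnb5 and Ogt, and, of the lower ones, Ptpn3 and Agt. Without cortex they were Tnni3, Kcnab1, Prkch, Tgfa, Myh7, Adra2c and Scn3a, and without the 5 arrays Fat1, Kcnab1, Fgfr2, Gnb5 and Ogt.

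A mean over 3 regions can hide 1 of them, so each striatal region was also set against each other region. Striatum and accumbens each differed from cortex, hippocampus and amygdala alike, at an adjusted p under 0.05 in all 6 comparisons, for 33 of the shared higher probe sets (0.629% of those tested) and 3 of the lower ones (0.0572%). Both striatal regions passed against hippocampus for 66 of the 82, against amygdala for 62 and against cortex for 45. Of the 13 lower probe sets, both passed against hippocampus for 12, against amygdala for 11 and against cortex for 3. The within-animal difference was above 0 in all 12 rats for 64 of the 82 and below 0 in all 12 for 10 of the 13. Its median was 0.80 for the shared higher and -0.82 for the shared lower probe sets, beside 0.01 over all those tested. These signs and medians follow in part from the choice of the probe sets on the same animals and arrays.

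**Figure D1:**
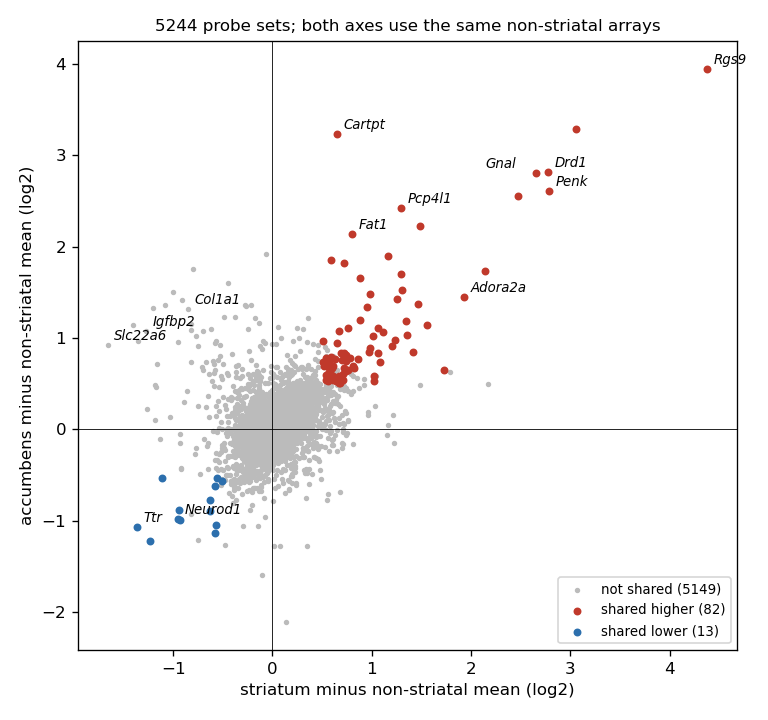
Log2 difference from the mean of cortex, hippocampus and amygdala in striatum (horizontal axis) and in accumbens (vertical axis) for 5244 probe sets, with the 82 shared higher in red and the 13 shared lower in blue. Rgs9 lies farthest to the upper right, Cartpt is high in accumbens and only slightly raised in striatum, and a group of grey points with Col1a1, Igfbp2 and Slc22a6 lies lower in striatum and higher in accumbens.

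Rgs9, a regulator that ends G protein signals downstream of dopamine and opioid receptors, had the largest difference. Its log2 signal ran from 10.33 to 11.89 in striatum (median 11.26) and from 10.50 to 11.08 in accumbens (10.81), and from 5.83 to 7.93 in cortex (6.32), 5.76 to 7.79 in hippocampus (6.29) and 6.22 to 9.84 in amygdala (7.17). No striatal array overlapped any other array. Rgs9 was higher by 4.16 ± 0.13 (log2, SE; n = 12 animals; limma adjusted p = 3.52e-11), and by 4.41 without the 5 arrays.

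Drd1 encodes the D1 dopamine receptor of direct-pathway neurons. It ran from 10.37 to 11.82 in striatum (median 11.15), 10.86 to 11.47 in accumbens (11.19), 7.31 to 8.42 in cortex (7.95), 7.32 to 8.21 in hippocampus (7.87) and 7.88 to 10.59 in amygdala (9.25). The highest amygdala array thus lay above the lowest striatum array, although within each animal both striatal arrays lay above the others in 12 of 12. The difference was 2.79 ± 0.10 (adjusted p = 1.15e-10), or 3.29 with amygdala left out of the mean.

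Gnal, the G protein alpha subunit that couples dopamine D1 and adenosine receptors to adenylyl cyclase, had wide ranges outside the striatum. Its log2 signal was 9.75 to 11.30 in striatum (median 10.61) and 9.43 to 11.30 in accumbens (10.85), against 4.62 to 8.05 in cortex (7.61), 5.72 to 8.69 in hippocampus (7.89) and 7.43 to 10.47 in amygdala (9.26). Striatal and amygdala arrays overlapped, and in 11 of 12 animals both striatal arrays lay above all others. The difference was 2.73 ± 0.18 (adjusted p = 8.62e-08), and 3.41 without amygdala.

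Penk, the enkephalin precursor of indirect-pathway neurons, ran from 12.63 to 13.89 in striatum (median 13.26), 12.87 to 13.35 in accumbens (13.08), 9.85 to 10.71 in cortex (10.23), 9.23 to 10.07 in hippocampus (9.79) and 10.35 to 12.34 in amygdala (11.37). The striatal arrays did not overlap the others, and the difference was 2.70 ± 0.10 (adjusted p = 1.15e-10). Tac1, the substance P precursor of direct-pathway neurons, ran from 11.62 to 13.29 in striatum (median 12.59), 11.92 to 13.13 in accumbens (12.71), 9.81 to 10.81 in cortex (10.03), 8.53 to 9.56 in hippocampus (9.23) and 9.64 to 12.06 in amygdala (11.11). It overlapped with amygdala and with no other region. Its difference was 2.51 ± 0.12 (adjusted p = 1.3e-09), and a probe set on another sequence record gave 3.17. All 5 markers passed against each of the 3 regions in both striatal regions, and amygdala was the nearest of the 3 for each.

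**Figure D2:**
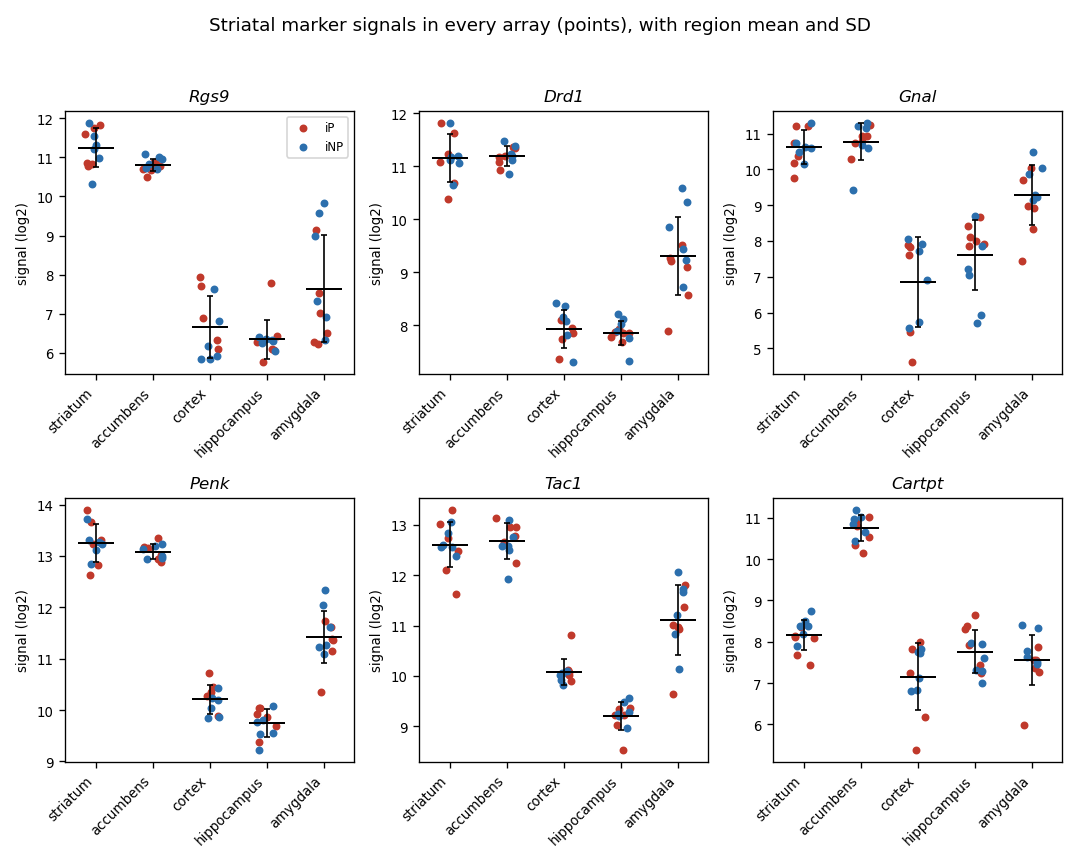
Log2 signal of the 5 striatal markers and Cartpt in every array (points, iP red and iNP blue), by region, with the region mean (line) and SD (bar). Rgs9 and Penk of striatum and accumbens lie above every other array, amygdala is spread between the low and the high groups, and Cartpt is high in accumbens alone.

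Promoter sequences are shown for 3 genes whose patterns frame the comparison: Tac1, raised in both striatal regions, Cartpt, raised mostly in accumbens, and Rgs9, with the largest difference. They come from RefSeq on build GRCr8, from 250 bases before to 50 after the gene's start, read 5′ to 3′ on the gene's strand. Capitals mark TGACG on either strand, the core of the element bound by the cyclic AMP responsive factor CREB, and the full 8-base element TGACGTCA where present, which holds that core on both strands.
Tac1, chr4:36645333-36645632, plus strand: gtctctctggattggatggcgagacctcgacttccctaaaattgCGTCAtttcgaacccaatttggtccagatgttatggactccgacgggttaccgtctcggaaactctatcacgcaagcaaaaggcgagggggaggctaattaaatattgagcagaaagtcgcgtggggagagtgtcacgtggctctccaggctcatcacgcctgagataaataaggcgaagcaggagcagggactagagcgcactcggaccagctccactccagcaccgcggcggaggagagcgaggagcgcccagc
Cartpt, chr2:32991186-32991485, minus strand: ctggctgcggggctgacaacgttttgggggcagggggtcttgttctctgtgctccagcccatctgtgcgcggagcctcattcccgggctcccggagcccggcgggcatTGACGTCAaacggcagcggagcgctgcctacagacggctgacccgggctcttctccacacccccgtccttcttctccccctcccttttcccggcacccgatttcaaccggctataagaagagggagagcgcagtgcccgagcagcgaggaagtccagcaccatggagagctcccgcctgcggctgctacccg
Rgs9, chr10:94770338-94770637, minus strand: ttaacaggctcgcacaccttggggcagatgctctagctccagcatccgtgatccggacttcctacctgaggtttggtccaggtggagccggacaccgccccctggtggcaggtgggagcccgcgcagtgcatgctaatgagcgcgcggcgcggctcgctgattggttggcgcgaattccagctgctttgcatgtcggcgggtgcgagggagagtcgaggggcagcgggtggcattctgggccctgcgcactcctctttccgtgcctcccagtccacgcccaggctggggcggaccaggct
Tac1 holds 1 core, which starts 206 bases before the gene's start, Cartpt holds the full element, which starts 142 bases before it, and the Rgs9 window holds neither.

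Of the 63 symbols with a shared higher probe set, 55 have an entry in that promoter table, and 13 of the 55 hold TGACG (23.6%), beside 21.2% of all 33469 promoters of the same length. The full element TGACGTCA is in 3 of the 55 (5.45%; Cartpt, Dusp1 and Fat1), beside 1.83% of all. Of the 11 shared lower symbols 7 have an entry and 1 holds TGACG (14.3%). The shared groups were counted by symbol, and all promoters by entry, including those of genes not tested here. The share with the core was near that of all promoters, and a match describes letters, not binding.

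Other parts of the dopamine and cyclic AMP path of medium spiny neurons were shared higher as well. Adora2a, the adenosine receptor of indirect-pathway neurons, ran from 10.62 to 11.58 in striatum (median 10.95) and 10.41 to 10.77 in accumbens (10.60), against 8.83 to 9.44 in cortex (9.01), 8.48 to 9.23 in hippocampus (9.03) and 8.99 to 9.86 in amygdala (9.37). There was no overlap, and the difference was 1.69 ± 0.06 (adjusted p = 1.15e-10). Adcy5, the main striatal adenylyl cyclase, rose by 1.10 ± 0.06. Pde1b, a phosphodiesterase that breaks down cyclic nucleotides, rose by 1.19 ± 0.14, and Arpp21, a cyclic AMP regulated phosphoprotein, by 1.13 ± 0.07. A further probe set of Arpp21 on the same record gave 0.58 and was not shared. Without hippocampus in the mean the Arpp21 difference was 0.59.

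Among G protein subunits besides Gnal, 3 were shared higher. Gng7, the gamma subunit that partners Gnal in the striatum, rose by 1.06 ± 0.05 (adjusted p = 1.51e-09), and a dimmer probe set on another record by 1.94. Gnb4, a beta subunit, rose by 1.34 ± 0.16, with a region mean of 6.99 in hippocampus against 9.04 in striatum, and by 0.89 without hippocampus. Gnb5, the beta subunit that pairs with Rgs9, rose by 0.59 ± 0.05, but a further probe set of the same record gave 0.40 and was not shared. The subunit genes Gnb1 (-0.40), Gnas (-0.15), Gnai2 (-0.12) and Gnao1 (0.27) did not pass, and Gnai1 (0.30) was higher by the test without being shared. Ptpn5, the striatum-enriched tyrosine phosphatase, rose by 0.80 ± 0.06 and in all 12 animals both striatal arrays lay above the others. Prkar2b, a regulatory subunit of protein kinase A, rose by 0.62 ± 0.11, and by 0.43 without hippocampus.

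Of 22 tested genes of the medium spiny neuron list, 16 were shared higher, beside 1.56% of all probe sets, and 0 were shared lower. The list was chosen with earlier results of these data known and holds genes given above, such as Rgs9. Its counts are thus no independent support. At an adjusted p under 0.05 alone, 19 of the 22 were higher and 0 lower, beside 9.15% and 6.22% of all probe sets. The list's median difference was 1.16, beside 0.01 over all probe sets. The members that did not pass were Chrm4, a muscarinic receptor (-0.06), Hpca, a calcium sensor (-0.04), and Cnr1, the cannabinoid receptor (0.16). Pdyn, the dynorphin precursor, rose by 0.24 ± 0.06, did not pass without amygdala (0.13) and was not shared by its brightest probe set, while a dimmer probe set on another record rose by 1.50 and was. Isl1, a factor of direct-pathway and cholinergic neurons, rose by 0.60 and passed the size threshold in accumbens (0.77) but not in striatum (0.43). Drd2, Gpr6, Rarb and Ebf1 had probe sets too dim to be tested, so indirect-pathway cells are represented here by Penk and Adora2a.

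The wider list of dopamine and cyclic AMP signalling genes was less uniform. Of 41 tested, 9 were shared higher, beside 1.56% of all probe sets. At the adjusted p alone 14 were higher and 2 lower, beside 9.15% and 6.22%, and 25 did not pass, with a median of 0.12. Of 23 tested neuropeptide precursors, only Penk, Tac1 and Cartpt were shared higher, beside the same 1.56%. At the adjusted p alone 8 were higher and 3 lower, beside 9.15% and 6.22%, and the median was 0.07. Vip, the peptide of a class of cortical interneurons, was lower by the test (-0.39 ± 0.13) but did not pass without cortex (-0.06). Npy was higher (0.40 ± 0.05; 0.25 without hippocampus), and Sst, the somatostatin gene, did not pass (-0.06).

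**Figure D3:**
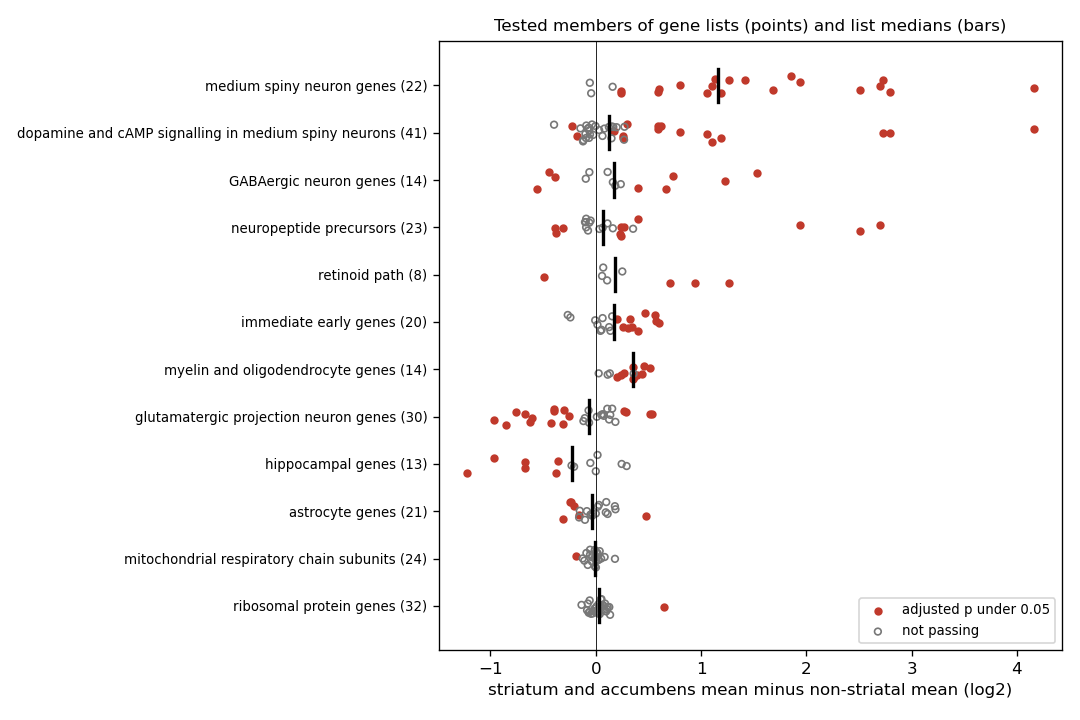
Difference of the striatum and accumbens mean from the non-striatal mean (log2) for the tested members of 12 gene lists, with filled points at an adjusted p under 0.05 and bars at the list medians. The medium spiny neuron list has a median of 1.16, the hippocampal list one of -0.23, and the ribosomal and mitochondrial lists cluster at 0.

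Of 29 tested genes of the list of calcium-binding and calcium-store proteins, 0 were shared higher and 1 shared lower. At the adjusted p alone 2 were higher and 7 lower, beside 9.15% and 6.22% of all probe sets, with a median of -0.07. Itpr1 rose by 0.29 by its brightest probe set and did not pass without amygdala (0.05). Its dimmer probe sets on other records rose by 0.65, 0.99, 1.21 and 1.34 and were not shared. Those rose by 1.03 to 2.17 in striatum and by 0.26 to 0.63 in accumbens. Outside that list, Pcp4, a small calmodulin-binding protein, rose by 1.42 ± 0.05 (adjusted p = 1.15e-10), with region means of 13.18 and 13.09 in striatum and accumbens and of 11.53 to 11.84 elsewhere. Its relative Pcp4l1 ran from 9.44 to 10.37 in striatum (median 9.77) and from 10.72 to 11.45 in accumbens (10.95), against 8.16 to 8.93 in cortex (8.74), 7.39 to 8.63 in hippocampus (8.08) and 8.22 to 9.95 in amygdala (9.05). Accumbens lay above every other array while striatum overlapped with amygdala, and the difference was 1.85 ± 0.08. Syt6, a synaptotagmin, rose by 1.41 ± 0.12, Actn2, an actin-binding protein of dendritic spines, by 1.35 ± 0.10, and Strn, a calmodulin-binding scaffold named after the striatum, by 0.59 ± 0.07.

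Genes of GABA synthesis and packaging rose, but not all of the inhibitory neuron genes did. Gad2, a GABA-synthesising enzyme, rose by 1.23 ± 0.15 (adjusted p = 5.32e-05), and Slc32a1, the vesicular GABA transporter, by 0.74 ± 0.05. Gad1, the other synthesising enzyme, rose by 0.67 ± 0.07 and missed the size threshold in striatum (0.41). Dlx5, a homeobox factor of developing forebrain GABA neurons, ran from 8.37 to 9.35 in striatum (median 9.21) and 9.39 to 10.14 in accumbens (9.76), against 6.93 to 8.50 in cortex (7.75), 6.97 to 8.73 in hippocampus (7.87) and 7.00 to 8.92 in amygdala (8.08). Accumbens did not overlap the non-striatal arrays and striatum did; the difference was 1.53 ± 0.11. Of 14 tested genes of the list, 3 were shared higher, beside 1.56% of all probe sets, and 5 were higher and 3 lower at the adjusted p alone, beside 9.15% and 6.22%. Those lower were Gabbr2, a GABA-B receptor subunit (-0.56), Pvalb, the calcium buffer of fast-spiking interneurons (-0.45), and Vip. Further probe sets of Gabbr2 on other records differed by -0.28 and -0.09 and did not pass, and Pvalb did not pass without cortex (-0.04).

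Of the retinoid genes, Rxrg and Crabp1 were shared higher out of 8 tested, beside 1.56% of all probe sets. Rxrg, a nuclear retinoid X receptor, rose by 1.26 ± 0.10 with both striatal arrays above the others in all 12 animals, and Crabp1, a retinoic acid binding protein, rose by 0.94 ± 0.10. Other members had different values in the 2 parts. Aldh1a2, which makes retinoic acid, changed by -1.20 in striatum and by 1.32 in accumbens, and its combined difference of 0.06 did not pass. Rbp4 rose by 0.71 ± 0.09 with 0.31 in striatum and 1.10 in accumbens, but did not pass without hippocampus (0.19, adjusted p = 0.43), and was 1.28 without amygdala. Aldh1a1 was lower by the test (-0.49 ± 0.05).

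Of 26 tested serotonin, adenosine, cannabinoid, muscarinic and opioid receptors, 3 were shared higher, beside 1.56% of all probe sets. At the adjusted p alone 6 were higher and 4 lower, beside 9.15% and 6.22%, and 16 did not pass, with a median of 0.01. Beside the same shares, the potassium channel list had 1 shared higher of 19 tested, with 3 higher and 3 lower at the adjusted p alone. The calcium and sodium channel list had 1 of 15, with 3 higher and 1 lower. Of 14 tested AMPA, NMDA and kainate receptor subunits and 9 tested GABA-A receptor subunits, 0 were shared. Htr2c, the serotonin 2C receptor, rose by 1.15 ± 0.07 (adjusted p = 1.82e-08) and passed against every region. Adra2c, an alpha-2 adrenergic receptor, rose by 0.61 ± 0.08. Htr2a, the serotonin 2A receptor, rose by 0.69 ± 0.10, although its cortex mean (8.69) was above those of striatum (8.30) and accumbens (8.50), and it was 0.33 without hippocampus and 1.12 without cortex. The potassium channel genes Kcnt1 (1.02) and Kcnf1 (0.78) also had their lowest means in hippocampus and were no longer shared without it, at 0.42 and 0.31. The potassium channel beta subunit gene Kcnab1 rose by 0.77 ± 0.07 with a low amygdala mean (8.69), and by 0.42 without amygdala. Scn3a, a sodium channel, rose by 0.57 ± 0.10. Gucy1a1, a subunit of the nitric oxide receptor guanylyl cyclase, rose by 0.63 ± 0.06 and was 0.21 without hippocampus and 1.00 without amygdala.

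Ecel1, a membrane endopeptidase, rose by 1.27 ± 0.15, and Nppa, the atrial natriuretic peptide precursor, by 1.22 ± 0.12 (0.75 without hippocampus). Tnni3, a troponin subunit, rose by 1.19 ± 0.14, and Myh7, a myosin heavy chain, by 0.62 ± 0.10. Of the signalling genes, Chn2, a GTPase activator, rose by 0.88 ± 0.08, Prkch, a protein kinase C, by 0.65 ± 0.07 and Tgfa, a growth factor, by 0.65 ± 0.08. The polarity scaffold gene Pard3 rose by 1.09 ± 0.08 and Neu2, a sialidase gene, by 0.91 ± 0.09 (0.59 without hippocampus). The remaining shared higher genes were Zeb1 (0.76), Pttg1 (0.78; without hippocampus 0.69, not passing), Ogt (0.54) and Fgfr2, a fibroblast growth factor receptor (0.66). A further 14 symbols were shared higher only by a probe set that was not the brightest of its gene. Besides Pdyn these include Fos (1.04 and 0.62), the phosphodiesterase gene Pde4b (0.69 in both of its probe sets), the potassium channel gene Kcnj4 (0.73) and Rasgrp1, an activator of Ras (0.91). Fgfr2 had an amygdala mean of 7.87 against 9.31 to 9.70 in the other 4 regions, and without amygdala its difference was 0.11.

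Of 20 tested activity-induced genes, 10 were higher at the adjusted p alone, 0 lower and 10 did not pass, with a median of 0.18. Over all probe sets 9.15% were higher and 6.22% lower. With 1 region left out of the mean, 6 were higher and 1 lower without hippocampus, 8 and 1 without amygdala, and 12 and 2 without cortex. Without the 5 arrays that lay nearest another region 9 were higher and 2 lower. Junb (0.57 ± 0.05) and Fosl2 (0.60 ± 0.10), both parts of the AP-1 factor, were shared higher. Fosl2 was 0.45 without amygdala, and its further probe set on another record differed by 0.05 and did not pass. Junb was 0.41 without hippocampus. Dusp1, a phosphatase induced with them, rose by 0.57 and the nuclear receptor Nr4a1 by 0.47, both short of the size threshold in accumbens. Dusp1 did not pass without hippocampus (0.43). Of its dimmer probe sets on other records, one rose by 0.95 and was shared, and another rose by 0.41 and was not. Jun had no shared call by its brightest probe set (-0.27, not passing), and a dimmer one was shared lower (-0.70).

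**Figure D4:**
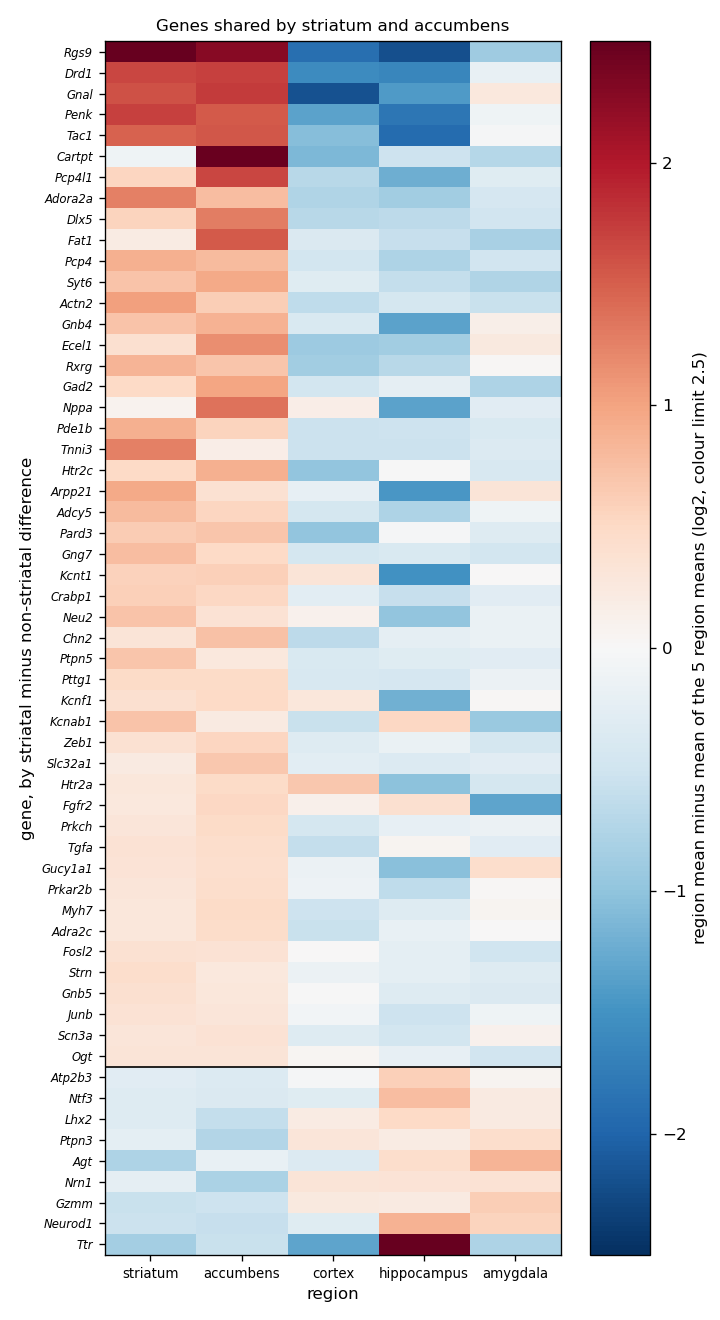
Region means of the 49 shared higher (above the line) and 9 shared lower genes, each minus the mean of the gene's 5 region means (log2; colours end at 2.5). Most higher genes are red in both striatal columns, Cartpt, Fat1 and Nppa mainly in accumbens and Tnni3 mainly in striatum, while Ttr stands out in hippocampus alone.

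The dorsal and ventral parts did not raise every shared gene equally. The direct comparison of accumbens with striatum, which uses no other region, called 198 probe sets higher in accumbens (3.78%) and 110 lower (2.1%); after quantile normalization the split was 170 and 145. Of the 82 shared higher probe sets, 8 were higher in accumbens than in striatum, 2 were lower and 72 had no call. Cartpt, the precursor of a peptide of accumbens neurons, ran from 10.16 to 11.18 in accumbens (median 10.83) and 7.44 to 8.75 in striatum (8.16), against 5.39 to 7.99 in cortex (7.24), 6.99 to 8.64 in hippocampus (7.77) and 5.98 to 8.41 in amygdala (7.56). Accumbens lay above all other arrays, and striatum overlapped with all 3 non-striatal regions. Its difference from the non-striatal mean was 3.23 ± 0.10 in accumbens and 0.65 ± 0.15 in striatum, and accumbens exceeded striatum by 2.58 ± 0.13 (adjusted p = 1e-08).

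Fat1, a large cadherin, ran from 8.75 to 10.52 in accumbens (median 9.95) and 7.57 to 9.60 in striatum (8.78), against 6.68 to 9.11 in cortex (7.80), 6.82 to 8.86 in hippocampus (7.44) and 6.71 to 9.14 in amygdala (7.30). It differed by 2.14 in accumbens and 0.80 in striatum, with 1.33 ± 0.27 between them. Its combined difference was 1.47, or 1.36 without the 5 arrays, where it was no longer shared. Nppa (1.27), Pcp4l1 (1.12), Ecel1 (0.77) and Dlx5 (0.73) were also higher in accumbens than in striatum, and Tnni3 (-1.08) and Arpp21 (-0.57) were lower. Rgs9 (-0.44), Adora2a (-0.47) and Ptpn5 (-0.44) were lower in accumbens at an adjusted p under 0.05 but within the size threshold. Drd1 (0.04), Tac1 (0.08), Gnal (0.16) and Penk (-0.17) did not pass.

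Fewer genes were lower in both parts, and few of them were lower than cortex. Nrn1, a growth-related membrane protein of excitatory neurons, was lower than every region. Its log2 signal ran from 12.08 to 12.89 in striatum (median 12.62) and 11.80 to 12.31 in accumbens (12.04), against 13.02 to 13.29 in cortex (13.11), 12.99 to 13.30 in hippocampus (13.15) and 12.88 to 13.37 in amygdala (13.20). Within each animal both striatal arrays lay below the others in 12 of 12, and the difference was -0.85 ± 0.04 (adjusted p = 1.79e-09). Accumbens was lower than striatum (-0.55 ± 0.07).

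Lhx2, a homeobox factor that patterns the developing cortex, and Ptpn3, a tyrosine phosphatase, were the other genes lower than each region. Lhx2 ran from 9.96 to 10.82 in striatum (median 10.31) and 9.70 to 10.46 in accumbens (10.04), against 10.60 to 11.18 in cortex (10.70), 10.85 to 11.40 in hippocampus (11.11) and 10.44 to 11.09 in amygdala (10.87). The striatum arrays overlapped with cortex and amygdala, and in 11 of 12 animals both striatal arrays lay below the rest. The difference was -0.76 ± 0.05 (adjusted p = 8.35e-08). Ptpn3 differed by -0.81 ± 0.08, with both arrays below in 10 of 12 animals.

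Neurod1, a helix-loop-helix factor of hippocampal granule and other excitatory neurons, ran from 8.04 to 8.80 in striatum (median 8.38), 7.68 to 8.70 in accumbens (8.44), 8.10 to 9.10 in cortex (8.55), 9.53 to 10.18 in hippocampus (9.76) and 8.67 to 9.97 in amygdala (9.57). Cortex overlapped with the striatal arrays, with a slightly higher median, and hippocampus lay above them all. The difference was -0.97 ± 0.09 (adjusted p = 2.78e-06), but a further probe set of the same record differed by -0.46 and did not pass (adjusted p = 0.0569). Ntf3, a neurotrophin, had region means of 9.62 and 9.58 in striatum and accumbens, 9.64 in cortex and 10.71 in hippocampus. It differed by -0.60 ± 0.08, and by -0.34 without hippocampus.

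Ttr, which encodes the thyroid hormone carrier transthyretin and is made in the choroid plexus, fell by the rule, but on hippocampus alone. It ran from 9.28 to 15.55 in hippocampus (median 12.79), from 7.69 to 8.62 in striatum (8.25), from 8.13 to 8.81 in accumbens (8.50), from 6.35 to 8.43 in cortex (7.93) and from 7.64 to 8.69 in amygdala (8.38). The striatal arrays lay within the cortex and amygdala range or just above it. The difference was -1.22 ± 0.18 (adjusted p = 0.00034), and 0.30 without hippocampus.

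Agt, the angiotensinogen gene of astrocytes, fell by 0.82 ± 0.10, from a mean of 12.23 in amygdala and 11.83 in hippocampus to 10.62 in striatum and 11.20 in accumbens, with cortex at 11.05. Accumbens exceeded striatum by 0.59 ± 0.13. Gzmm, a granzyme gene, fell by 0.91 ± 0.13, with arrays between 4.95 and 8.01 in the striatal regions and between 7.28 and 8.78 elsewhere. Atp2b3, a plasma membrane calcium pump, fell by 0.54 ± 0.08, and by 0.35 without hippocampus, while its further probe sets differed by -0.03 and -0.18 and did not pass.

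**Figure D5:**
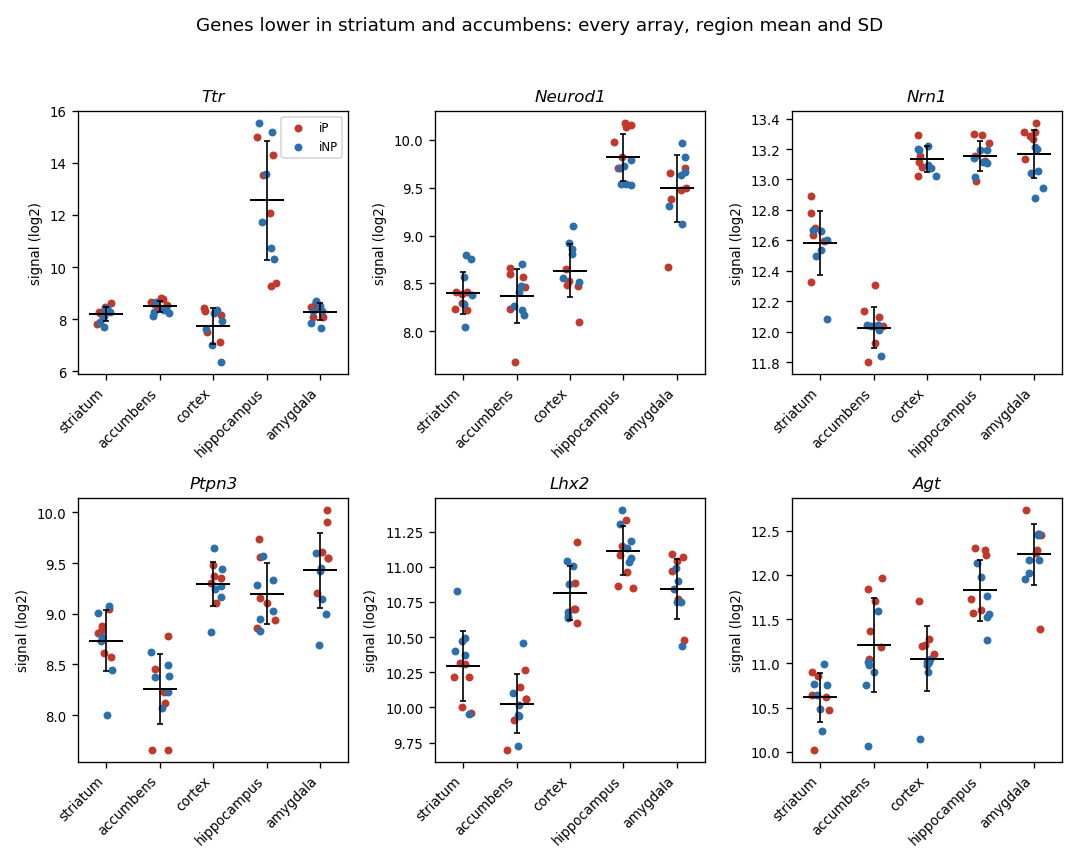
Log2 signal in every array of 6 of the 9 genes shared lower, by region, with the region mean (line) and SD (bar). Nrn1 is lower in striatum and accumbens than in each other region. Neurod1 in cortex overlaps with the striatal regions and lies below hippocampus, and Ttr is raised in hippocampus alone.

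Of 30 tested genes of glutamatergic projection neurons, 3 were shared lower (Neurod1, Nrn1, Lhx2), beside 0.248% of all probe sets, and 0 shared higher. At the adjusted p alone 12 were lower and 4 higher, beside 6.22% and 9.15%, and 14 did not pass, with a median of -0.07. The accumbens values of several were lower than the striatum values: Nrgn, a postsynaptic calmodulin-binding protein, changed by -1.28 in accumbens and by 0.02 in striatum, and Nptx1, a synaptic pentraxin, by -1.05 and -0.29. Olfm1 was lower by 0.60 ± 0.04 by the test, with -0.40 in striatum and -0.81 in accumbens. Rasgrp1 (0.51) and Cux1 (0.53) were higher, but Rasgrp1 did not pass without amygdala (0.16), and Cux1 was 0.33 without hippocampus. Of 13 tested hippocampal genes, 2 were shared lower, beside 0.248% of all probe sets, and 6 were lower and 0 higher at the adjusted p alone, beside 6.22% and 9.15%, with a median of -0.23. Without hippocampus 2 were lower and 2 higher, with a median of 0.08. Those include Htr5b (-0.67) and Gpr161 (-0.67), which were 0.08 and 0.05 without hippocampus.

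A set of probe sets was called in opposite directions in the 2 striatal regions, so their differences cancelled wholly or in part in the combined mean. There were 34 of these among the 5244 tested. Of them, 32 were lower in striatum and higher in accumbens than the non-striatal mean. All 34 were called in the direct comparison, which opposite calls against the same non-striatal mean nearly ensure. They are named here after their values were seen. Col1a1 and Col1a2, the chains of type I collagen, differed between accumbens and striatum by 2.16 ± 0.22 and 1.91 ± 0.16. Igf2, an insulin-like growth factor, differed by 1.88 ± 0.19 and its binding protein gene Igfbp2 by 2.34 ± 0.20. Ptgds, a prostaglandin synthase, had region means of 12.89 in striatum, 14.80 in accumbens, 14.11 in cortex, 12.64 in hippocampus and 14.84 in amygdala, so that striatum lay beside hippocampus and accumbens beside amygdala.

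The levels of cell type markers were measured in the same arrays. Medium spiny neuron markers were all higher at the adjusted p alone (8 of 8 tested), beside 9.15% of all probe sets. Their summed linear signal was 22190 to 44755 in striatal and 4079 to 18812 in other arrays. These markers are the 5 that name the striatal cells with Adora2a, Pde1b and Adcy5, all given above, so the count is no independent support. Of 14 tested myelin and oligodendrocyte genes, 10 were higher at the adjusted p alone, beside 9.15% of all probe sets, 0 lower and 0 shared, with a median of 0.35. Without amygdala in the mean 2 of the 10, Ugt8 and Sox10, still passed, and the list's median was 0.05. Mog was then 0.15, Mag 0.11 and Mobp 0.04. With all 3 regions, dimmer probe sets of Mag (1.09) and Mobp (0.71 and 0.63) were shared higher. The region means of Mog, a myelin surface protein, were 11.16 in striatum, 11.10 in accumbens, 10.65 in cortex, 11.26 in hippocampus and 9.95 in amygdala, so hippocampus was not below the striatal regions. The 5 oligodendrocyte markers summed to 66000 to 101829 in striatal arrays and 29088 to 125621 in others. Mbp, the myelin basic protein gene, did not pass (0.36, adjusted p = 0.0813). Of 4 astrocyte markers only Aqp4 was higher (0.48; without amygdala 0.43, not passing), and the 2 tested microglial and 2 endothelial markers did not pass. In the wider list of blood and endothelial genes, 5 of 13 tested were higher at the adjusted p alone, 0 lower and 0 shared, with a median of 0.17. Without hippocampus in the mean 0 of the 13 were higher, and the median was 0.07. Slc18a3, the vesicular acetylcholine transporter of cholinergic interneurons, was higher by 0.48 ± 0.08. Th, the dopamine-synthesising enzyme, was higher by 0.44 ± 0.13, with -0.10 in striatum and 0.97 in accumbens, but did not pass without amygdala (0.35) or without the 5 arrays (0.40). The part of these cells in the shared differences was not tested.

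Housekeeping groups gave the background of the comparison. Of 32 tested ribosomal protein genes 1 was higher and 31 did not pass, with a median of 0.03, and of 24 mitochondrial respiratory chain subunits 1 was lower and 23 did not pass, with a median of -0.0031. Over all probe sets 9.15% were higher and 6.22% lower at the adjusted p alone. Apart from these groups, 1 of 21 astrocyte genes was higher and 5 were lower, a larger share lower than over all probe sets. The list's median was -0.03, and without amygdala in the mean 1 was higher and 3 were lower. Of 11 microglial genes 0 passed in either direction.

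The striatal difference was measured in both lines, and a difference between them passed in 0 of 5244 probe sets by limma (0%; 141 at an unadjusted p under 0.05; smallest adjusted p 0.999). Among the 95 shared probe sets 3 had an unadjusted p under 0.05: Actn2 (iP minus iNP -0.52), Fosl2 (-0.45) and a further probe set of Fgfr2 (0.92), all with an adjusted p of 0.999 by limma. Fitted on 6 animals each, 38 probe sets were shared higher in iP, including 32 of the 82, and 59 in iNP, including 52. The combined difference of Rgs9 was 4.21 in iP and 4.12 in iNP.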

How the data were processed

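Arrays of 5 brain regions from 12 rats were analysed, 59 in all. Region, line and animal number came from the titles; the source names, all iNP, were set aside. The deposited values are intensity per probe set on a linear scale; each array's mean, with 2% trimmed at each end, was 1000, so no further scaling was applied. Their software: not given in the sources used here. RNA of each rat was labelled with biotin separately, per the labels' protocols. Precision is set by how many animals there were, since arrays have no depth.

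Intensities under 16 were set to 16 and log2 transformed. Of 8799 probe sets, 59 controls and then the 40% with the lowest mean were left out, which left 5244. Of the 8740 probe sets that are not controls, 7006 carry 1 symbol in GEO's platform table, 308 several and 1426 none; 6985 matched RefSeq's GRCr8 gene table by gene ID, with 0 symbols changed. Promoters come from RefSeq on GRCr8.

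One value per animal was tested with limma 3.58.1 in R 4.3.3 (lmFit and eBayes with an intensity trend; intercept against 0, line as covariate, two-sided, Benjamini-Hochberg over all probe sets). A call needed an adjusted p under 0.05 and a log2 difference over 0.5. A list's counts use the adjusted p alone unless called shared. Pairing within an animal follows from the animal numbers. The code was tested on simulated data. Named genes were the 5 markers, the 20 largest shared rises and falls, the 5 largest accumbens minus striatum calls each way, up to 4 passing and 2 other members of each list, and the 3 smallest line p-values; the remaining shared genes and the members of 5 lists were added after their values were seen. The 5 largest rises and falls and the markers are given by array. The members and lists were chosen with earlier results of these data known. The alternatives cover the floor, filter, scaling, weights, trend, block, arrays and regions left out, each line alone and the size threshold.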

Additional observations from a re-analysis of the deposited data

Results flagged for a closer look

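Accumbens and striatum, set against the same non-striatal mean, differed for 10 of the 58 shared genes in the direct limma comparison of the 2 regions (accumbens minus striatum, log2, adjusted p under 0.05 and a difference over 0.5, n = 12 animals). Over all 5244 probe sets that comparison called 198 higher (3.78%) and 110 lower (2.1%). By the adjusted p alone 26 of the 58 differed. Accumbens was higher in Cartpt (2.58), Fat1 (1.33), Nppa (1.27), Pcp4l1 (1.12), Ecel1 (0.77), Dlx5 (0.73) and Agt (0.59). It was lower in Tnni3 (-1.08), Arpp21 (-0.57) and Nrn1 (-0.55). Dixon's test was met in 0 of 20 tests. These covered the mean of the 5 striatal markers over the arrays of each region and line, and each marker's within-animal striatal difference in each line. RNA quality and correlation between arrays, in which cortex of iP animal 5 stood apart, were not among them.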

How the results depend on the processing

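Leaving out each animal in turn gave 130 to 164 higher and 32 to 47 lower probe sets in the combined comparison, 72 to 87 and 11 to 17 shared, 25 to 32 and 2 to 4 beyond every region, 186 to 202 and 99 to 139 between accumbens and striatum, and 0 line differences. The arrays in one fit gave 145 and 39 combined calls with the animal as a fixed replicate block, 146 and 38 as a random one and 145 and 37 with no replicate block, so pairing moved no count by over 1.5 times; shared calls were 73, 76 and 71 higher.

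Without a filter on dim probe sets, combined calls were 246 higher and 61 lower and shared lower calls 21. With 60% left out, they were 69 and 25, and shared higher calls 43. Lower calls beyond every region were 5 with array weights, without cortex iP 5 and amygdala iP 1, and without the 5 arrays, where shared lower calls were 21. Without cortex in the mean, combined lower calls were 73 and shared calls 125 and 37; without amygdala, 71 combined lower and 26 shared lower. In iP alone, combined higher calls were 86, shared higher 38, and calls beyond every region 6 and 0; in iNP alone, 1 lower. At a size of 1, combined calls were 36 and 2, shared 21 and 2, beyond every region 17 and 0, which the stricter size itself gives. Otherwise the cause was not tested.

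Of the named genes, 7 changed sign: Qdpr (-0.0046), Pllp (-0.025) and Cacna2d1 (0.047) without amygdala, and Nrp1 (0.020), Gpr161 (0.046), Htr5b (0.083) and Ttr (0.30) without hippocampus. Over all settings, named genes at an adjusted p under 0.05 kept their direction and side of the threshold in 3884 of 4210 cases. Many of these settings left out only 1 animal, with iP animal 6 entered more than once. The genes kept were fewer in iP alone (69 of 129), in iNP alone (104 of 133), without hippocampus (102 of 133) and without amygdala (107 of 133). Probe sets near background and 12 animals limit small differences. Non-striatal regions were a mean of 3, so a gene low in 1 region can pass.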
